A study of Mus musculus with 4 samples.

Results

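The teneurin genes Odz2, Odz3 and Odz4 (renamed Tenm2, Tenm3 and Tenm4 in later annotations) were examined for accessible chromatin in wild-type NMRI mouse forelimb buds. These 3 genes, of 22380 protein-coding genes annotated, were chosen from these same lists because many regions there were listed at 1 stage only. Their regions were those whose centre lay inside the gene or whose nearest transcript start was one of its own. By this rule 55 regions belonged to them in the E9.5 list, which held 42613 in all, and 85 in the E10.5 list, which held 46765. Odz2 had 12 and 26, Odz3 had 15 and 18, and Odz4 had 28 and 41.

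Open chromatin was mapped by ATAC-seq, a method whose transposase places sequencing adapters where DNA is accessible. For each stage, a single list of regions was made by the authors from 2 biological replicates. Each replicate was the forelimb bud pair of a single wild-type embryo. The E9.5 samples, to which the protocol assigns a slightly later age within the same day, kept adjoining trunk tissue, whereas the E10.5 samples name no trunk, so stage and trunk tissue cannot be told apart. For E10.5, hindlimb buds appear beside forelimb buds in the tissue label, but the source and protocol mention only forelimb buds. Regions at the promoters of the limb genes Tbx5 (best score 89.9 at E9.5 and 74.2 at E10.5), Prrx1 (1810 and 2032) and Fgf10 (1923 and 2334) were in both lists. The hindlimb gene Tbx4 had 3 promoter regions at E9.5 (best score 229.2) and 1 at E10.5 (135.2). Pitx1, also a hindlimb gene, had 2 at E9.5 (best score 363.6) and 0 at E10.5. These scores were above those of Tbx5 at the same stage, so the promoters do not separate forelimb from hindlimb.

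The score of a region is 10 times the negative log10 of its best MACS p-value, so it grows with sequencing depth, which is unknown here. Scores of member regions compared between the stages are therefore given with the percentile in their own list. The lists had medians of 260.4 (E9.5) and 241.3 (E10.5). Any overlap with the other list, down to 1 bp, made a region shared, and those with no overlap are called stage-specific. Since these are bulk tissues, a region present in fewer cells and a region less open in each cell cannot be told apart.

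Teneurins are large transmembrane proteins that span the membrane once and carry EGF-like repeats and a beta-propeller in a long extracellular part. They bind latrophilins, adhesion G protein-coupled receptors encoded by the Lphn genes, on neighbouring cells, and latrophilins also bind the FLRT proteins. They are best known for guiding which neurons connect, and they are also made in mesenchyme during limb and skeletal development. Their genes are very long, with several transcript starts and large introns near the 5′ end in which regulatory elements can lie.

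The windows of DNA shown here are the central 201 bases of the highest-scoring E10.5-specific and E9.5-specific region of each gene and, for Odz2 and Odz4, of the highest-scoring region within 2.5 kb of a start. They let the base composition of the promoters be set against that of stage-specific regions away from starts. All are plus-strand sequence of mm9, whereas Odz2 and Odz3 are transcribed from the minus strand. Capitals mark matches to any of the 14 short motifs listed further on.

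The promoter windows had a GC content of 65.2% in Odz2 and 54.2% in Odz4, with 14 and 8 CpG dinucleotides. The median was 15 in windows of promoter-proximal regions and 3 in those of distal regions, in either list.
Odz2, chr11:37050024-37050224, promoter (score 1348): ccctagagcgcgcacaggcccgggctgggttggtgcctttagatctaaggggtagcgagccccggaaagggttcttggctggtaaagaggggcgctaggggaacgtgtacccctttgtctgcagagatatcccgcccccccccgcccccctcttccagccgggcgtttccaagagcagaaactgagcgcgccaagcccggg
Odz4, chr7:103360312-103360512, promoter (score 2206): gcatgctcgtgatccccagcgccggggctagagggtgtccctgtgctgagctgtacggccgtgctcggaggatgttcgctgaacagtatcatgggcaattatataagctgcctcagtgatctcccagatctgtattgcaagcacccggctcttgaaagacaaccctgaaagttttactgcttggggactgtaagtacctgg

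The E10.5-specific windows had a GC content of 50.2% in Odz2, 54.7% in Odz3 and 49.3% in Odz4, with 0, 9 and 6 CpG dinucleotides.
Odz2, chr11:36844947-36845147, E10.5-specific region (score 2158): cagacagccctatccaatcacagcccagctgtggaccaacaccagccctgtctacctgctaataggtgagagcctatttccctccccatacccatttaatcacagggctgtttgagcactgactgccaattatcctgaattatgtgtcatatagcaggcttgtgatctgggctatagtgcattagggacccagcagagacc
Odz3, chr8:49306259-49306459, E10.5-specific region (score 686.9): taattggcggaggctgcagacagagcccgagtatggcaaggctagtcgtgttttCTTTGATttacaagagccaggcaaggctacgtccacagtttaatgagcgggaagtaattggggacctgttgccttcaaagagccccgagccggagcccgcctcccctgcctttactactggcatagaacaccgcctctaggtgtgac
Odz4, chr7:103758478-103758678, E10.5-specific region (score 816.8): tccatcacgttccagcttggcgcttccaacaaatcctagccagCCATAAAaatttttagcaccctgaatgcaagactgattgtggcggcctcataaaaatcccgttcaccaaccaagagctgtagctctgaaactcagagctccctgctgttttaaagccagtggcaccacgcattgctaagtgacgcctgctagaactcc

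The E9.5-specific windows had a GC content of 45.3% in Odz2, 37.3% in Odz3 and 60.2% in Odz4, with 4, 0 and 1 CpG dinucleotides.
Odz2, chr11:36510709-36510909, E9.5-specific region (score 336.8): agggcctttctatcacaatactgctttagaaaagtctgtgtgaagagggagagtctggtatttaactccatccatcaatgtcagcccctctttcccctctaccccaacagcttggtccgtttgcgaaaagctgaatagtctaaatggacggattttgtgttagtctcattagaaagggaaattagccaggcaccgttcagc
Odz3, chr8:49978308-49978508, E9.5-specific region (score 152.1): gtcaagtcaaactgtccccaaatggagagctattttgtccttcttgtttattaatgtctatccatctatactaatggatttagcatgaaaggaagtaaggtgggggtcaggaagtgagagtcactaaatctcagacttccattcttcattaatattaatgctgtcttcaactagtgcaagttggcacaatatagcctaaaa
Odz4, chr7:103803750-103803950, E9.5-specific region (score 701.5): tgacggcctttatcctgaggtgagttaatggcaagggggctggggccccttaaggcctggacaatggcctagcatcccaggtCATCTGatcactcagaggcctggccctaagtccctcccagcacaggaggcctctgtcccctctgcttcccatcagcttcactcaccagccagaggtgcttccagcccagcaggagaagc

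Odz2 lies at chr11:35820158-37049466 on the minus strand of mm9 and spans 1229 kb, with 9 annotated transcripts that begin at 6 positions. Its promoter region, at the start of the longest coding transcript, Odz2-001, scored 1348 (85.8 percentile) at E9.5 and 1308 (90.7 percentile) at E10.5. A further shared region in intron 4 covered the internal start at 36491247, which belongs to the non-coding transcript Odz2-004, with scores of 622.3 (70.6 percentile) and 643.6 (77.3 percentile). Neither list had a region at the internal start at 36757668, where 4 transcripts begin, 3 of them coding. There the nearest region was 242 kb away at E9.5 and 44.9 kb away at E10.5. The starts at 36245778 and 36308641 had none within 2.5 kb at either stage.

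Odz3 lies at chr8:49313036-49760044, also on the minus strand, and spans 447 kb with 8 transcripts and 7 start positions. The start of its longest transcript, Odz3-001 at 49760044, had no region nearer than 73.7 kb at E9.5 and 99.9 kb at E10.5. Accessibility was instead found in intron 2 of that transcript, 119.2 kb downstream, where the coding transcripts Odz3-002, Odz3-003 and Odz3-004 begin. The E9.5 list had a region of score 2241 (94.5 percentile) there and, 149 bp away, a weak one of 109.3 (11.6 percentile), whereas 1 region of 3433 bp and score 1911 (95.6 percentile) spanned both at E10.5. An internal start in intron 14, at 49385453, was covered at both stages, with a score of 225.7 (45.3 percentile) at E9.5 and 1163 (88.8 percentile) at E10.5. The coding starts at 49452717 and 49502603 had none.

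Odz4 lies at chr7:103319754-104059603 on the plus strand and spans 740 kb with 13 transcripts and 10 start positions. As in Odz3, the start of its longest transcript, Odz4-001, had no region within 2.5 kb, and the nearest ended 17.5 kb upstream in both lists. The start cluster between 103358173 and 103360181, from which 7 transcripts begin, was covered at both stages. At E9.5 it lay in 1 region of 4841 bp with a score of 2206 (94.3 percentile), and at E10.5 in a region with a score of 1338 (91.1 percentile), with another of score 1238 (89.8 percentile) that began 68 bp further on. The internal starts at 103792682 (scores 656.5 and 447.8, percentiles 71.6 and 68.6) and 103945151 (scores 412.4 and 422.0, percentiles 62.1 and 67.1) also had a region in both lists, although the E10.5 region lay 1.06 kb from the latter start. The starts at 103670908 and 103926444 had no region centre within 2.5 kb.

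Of the 23 start positions of the 3 genes, 14 had a region centre within 2.5 kb at E9.5 (60.9%) and the count was 14 at E10.5. Over all 70021 start positions of protein-coding genes, 59.9% had one in the E9.5 list and 56.9% in the E10.5 list, so the members' share was near that background. None of the 8 promoter-proximal member regions at E9.5, nor of the 8 at E10.5, was stage-specific, where 13.1% and 5.31% of all promoter-proximal regions were.

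**Figure D1:**
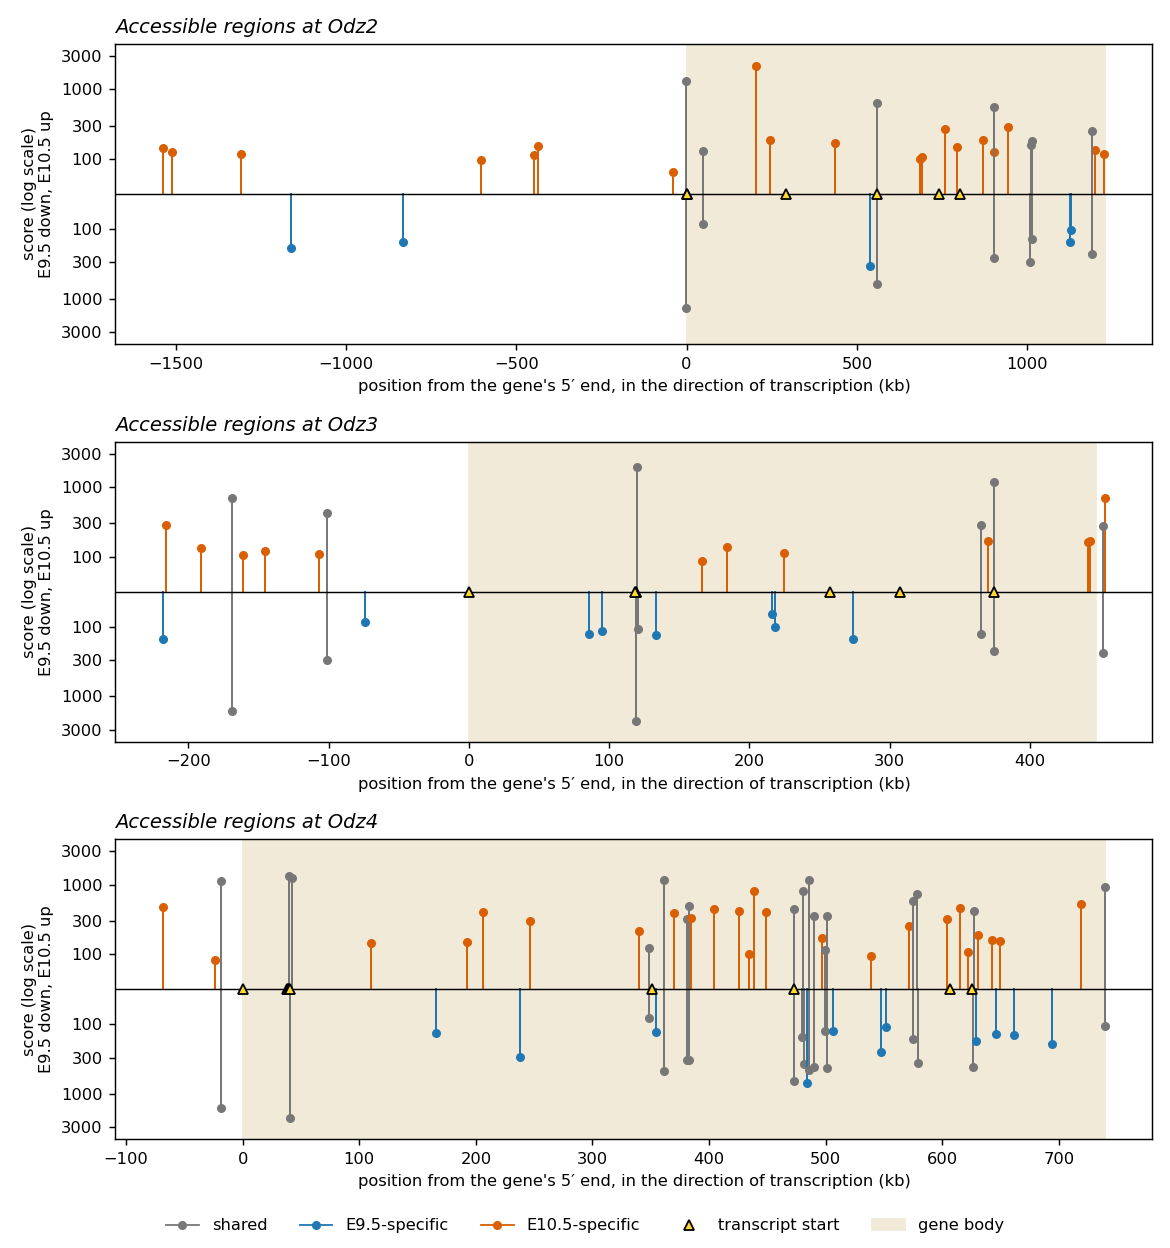
Accessible regions along Odz2, Odz3 and Odz4. The x axis is the position of the region centre from the 5′ end of the gene in kb, in the direction of transcription, and stems give the score on a log scale, upwards for E10.5 and downwards for E9.5. Grey stems are shared regions, blue and orange stems are E9.5- and E10.5-specific regions, triangles are transcript starts and the shaded box is the gene. The tall orange stem in Odz2, of score 2158, stands 204.4 kb into the gene, and orange stems fill the stretch of Odz4 before the start at 473 kb.

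At Odz2, 5 of the 12 E9.5 regions were E9.5-specific (41.7%, 95% Wilson interval 19.3 to 68.0%) and 19 of the 26 E10.5 regions were E10.5-specific (73.1%, 53.9 to 86.3%). At Odz3, the counts were 8 of 15 (53.3%, 30.1 to 75.2%) and 12 of 18 (66.7%, 43.7 to 83.7%). At Odz4, they were 11 of 28 (39.3%, 23.6 to 57.6%) and 24 of 41 (58.5%, 43.4 to 72.2%). The intervals cover counting error only and treat regions as independent, and since the genes were chosen from these values no test was made.

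Among all regions, 29.9% of the E9.5 list and 35.0% of the E10.5 list were stage-specific. Among distal regions inside protein-coding genes the shares were 44.2% and 50.3%, and inside genes of 300 kb or more they were 44.0% and 62.1%. The shares over all regions include promoter-proximal ones, of which 13.1% and 5.31% were specific. The genes were chosen for their stage-specific regions, so standing above those shares is not a result. Counted like the long-gene background, over distal regions inside the genes, the 3 genes had 20 specific among 39 at E9.5 (51.3%, interval 36.2 to 66.1%) and 40 among 58 at E10.5 (69.0%, interval 56.2 to 79.4%), and both intervals held the long-gene share. Singly, on this count, Odz2 had 3 specific among 8 at E9.5 (37.5%, interval 13.7 to 69.4%) and 12 among 17 at E10.5 (70.6%, interval 46.9 to 86.7%). Odz4 had 11 among 24 (45.8%, interval 27.9 to 64.9%) and 22 among 34 (64.7%, interval 47.9 to 78.5%). Odz3 had 6 among 7 in each list (85.7%, interval 48.7 to 97.4%). Its E9.5 interval did not hold the 44.0% of long genes, while each of the other intervals held the long-gene share. All 6 of these E9.5-specific regions scored below their list's median. The genes were chosen for their stage-specific regions, so this comparison is not a test.

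Among the higher-scoring 50% of the E10.5 list, 3 of 7 regions at Odz2 (42.9%), 2 of 8 at Odz3 (25.0%) and 13 of 28 at Odz4 (46.4%) had no overlap in the whole E9.5 list, promoter regions and regions outside the genes included. The whole higher-scoring 50% of the E10.5 list held 4224 specific and 19157 shared regions. Among its distal regions inside Odz2, Odz3 and Odz4, 3 of 5, 0 of 1 and 12 of 22 were specific. The share over such regions of all protein-coding genes was 36.6%. The higher-scoring 50% of the E9.5 list held 2309 specific and 18997 shared regions. At the 3 genes, 1 of 5, 0 of 3 and 2 of 14 of these were specific. Of the distal ones inside the genes, 1 of 3 at Odz2 and 2 of 10 at Odz4 were specific and Odz3 had 0 such regions, beside 26.7%.

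Over all distal E10.5 regions, the median GC content was 50.5% for shared and 44.2% for specific ones, so the distal regions of the 3 genes were also set beside those of the same GC class of 5 percentage points. The 77 distal E10.5 regions included 55 specific ones (71.4%), where the list's own rates at like GC content gave 39.3 regions, and 38.1 (49.4%) at like GC content and score decile. For Odz2 the numbers were 19 of 24 against 12.8, for Odz3 12 of 16 against 8.71 and for Odz4 24 of 37 against 17.7. At E9.5, 24 of 47 distal regions were specific (51.1%), against 19.2 at like GC content. These rates come from all distal regions of the list and not from long genes, which had 62.1% at E10.5. Since the genes were chosen for their stage-specific regions, the excess is no independent result and was not tested.

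**Figure D2:**
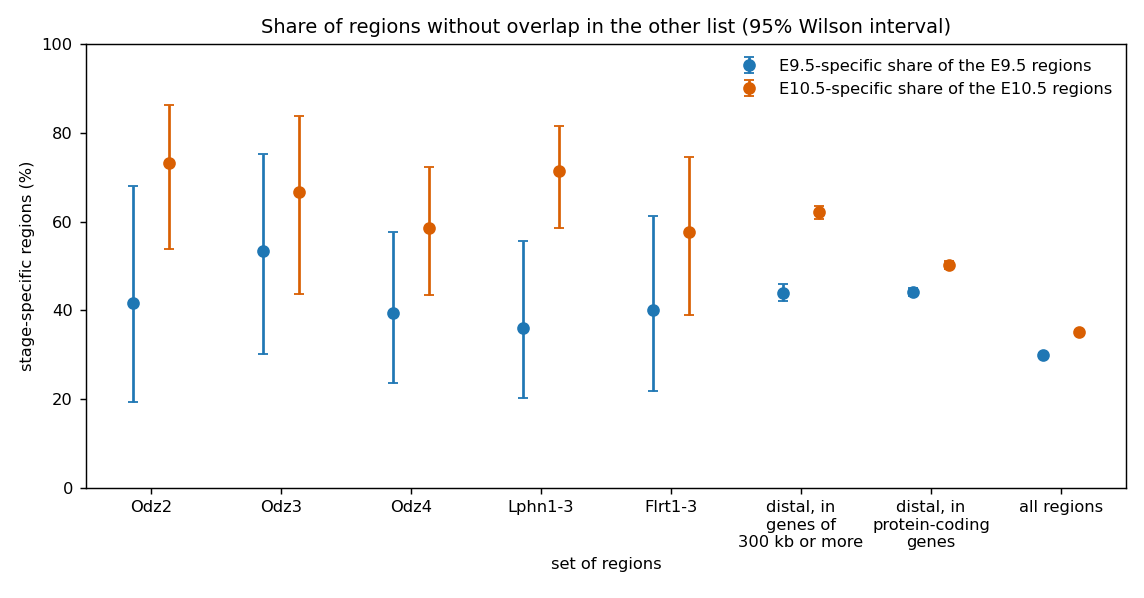
Stage-specific regions as a percentage of the regions of each set, with 95% Wilson intervals as bars, for E9.5 (blue) and E10.5 (orange). The E10.5 points of Odz2 (73.1%), Odz3 (66.7%) and Odz4 (58.5%) count all regions of the gene, promoters and flanks included, whereas the 62.1% of genes of 300 kb or more counts distal regions inside them. All 3 lie above the 35.0% of all regions, which also counts promoter-proximal regions, but the genes were chosen for their stage-specific regions.

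The E10.5-specific region with the highest score at Odz2, chr11:36844137-36845958, scored 2158 (96.7 percentile) and lay in intron 2, 87.4 kb from the nearest annotated start. It ranked 5 among the 16390 E10.5-specific regions and 1 among the 6344 that were distal and inside a protein-coding gene. The nearest E9.5 region was 153 kb away. No other E10.5-specific region of Odz2 scored above 286.6, the value of a region in intron 6 at chr11:36105581-36107000, followed by one in intron 4 at 272.0. Of the 19 specific regions, 3 were above the list's median score.

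Intron 4 of Odz2, 479 kb long and 39.3% of the intronic length of Odz2-001, held 6 E10.5 regions, 5 of them specific, and 2 E9.5 regions. A run of 5 E10.5-specific regions covered a stretch of 187 kb from intron 5 into intron 4, with scores between 101.2 and 272.0. The strongest E9.5-specific region, chr11:36510290-36511329 with a score of 336.8, was in the same intron, 18.5 kb from the nearest E10.5 region. Upstream of the gene, in a span without another protein-coding start that was closer, 7 E10.5-specific regions and 2 E9.5-specific regions lay up to 1538 kb and 1162 kb away. Their highest scores were 155.6 and 190.7, the 31.5 and 39.0 percentiles, so all were below the medians of their lists. At the 3′ end, 3 regions of each list inside Odz2 were nearer to a start of Wwc1.

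At Odz3, the distal regions inside the gene numbered 7 in each list, and only 1 pair of them was shared, the region in intron 13 at chr8:49394283-49395148. The remaining 6 in each list differed in place. The E9.5-specific ones were 5 in intron 2 and 1 in intron 3, with scores from 66.5 to 148.4. The E10.5-specific ones were 3 in intron 2 (87.5 to 136.3), 1 in intron 13 (166.9) and 1 each in introns 27 and 28 (163.8 and 170.8). Every one of these 12 scored below its list's median. The strongest E10.5-specific region, chr8:49305850-49306869 with a score of 686.9 (78.6 percentile), lay past the 3′ end and only 0.475 kb from an E9.5 region with a score of 236.9, which had its own E10.5 partner.

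Upstream of Odz3, a region 169 kb before the 5′ end was among the strongest of the locus at both stages, with scores of 1619 (89.3 percentile) at E9.5 and 692.8 (78.8 percentile) at E10.5. A weaker shared region stood 101 kb before the 5′ end, with scores of 299.4 (54.1 percentile) and 429.0 (67.5 percentile). On this side 5 E10.5-specific regions (104.8 to 281.0) and 2 E9.5-specific regions (86.1 and 152.1) were also found. The specific regions of highest score among them, chr8:49975434-49976358 at E10.5 and chr8:49977918-49978898 at E9.5, were 1.56 kb apart.

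At Odz4, the E10.5-specific regions were stronger than in Odz2 and Odz3. Their median score was 274.9 (54.4 percentile), against 133.9 in both Odz2 and Odz3 (23.8 percentile) and 150.6 over all E10.5-specific distal regions in protein-coding genes. Of the 24, 13 lay above the list's median score, where 25.2% of those background regions did. The 17 shared E10.5 regions of Odz4, promoters included, also scored high, with a median of 576.8 and 15 above the list's median. Over all shared E10.5 regions the median was 361.5 and 63.1% were above it, so high scores were not particular to the specific regions of Odz4. The 11 E9.5-specific regions of Odz4 had a median score of 143.1 (26.1 percentile), and 2 were above the median of their list.

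Intron 6 of Odz4, 90.3 kb long, held 8 E10.5 regions and 2 E9.5 regions. Of the 8, 6 followed one another without an E9.5 counterpart over 65.6 kb, from 103703588 to 103769196, with scores of 335.8, 455.4, 414.9, 100.6, 816.8 and 400.5 in genome order. The strongest, chr7:103757996-103759161, was also the strongest E10.5-specific region of the gene. The first began only 101 bp after a shared region, and the others were between 19.7 and 41.2 kb from the E9.5 list. Of these 6, 4 lay within the antisense transcript Gm15414, whose own start was 8.38 kb from the nearest of them, and no E9.5 region lay within it.

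The neighbouring intron 7, 50.6 kb long, was by contrast mostly shared. It held 8 E9.5 regions, 6 of them shared, and 6 E10.5 regions, 5 of them shared. One of the exceptions was the strongest E9.5-specific region of the gene, chr7:103803268-103804432, which scored 701.5 (73.0 percentile) and ranked 61 among 4934 distal E9.5-specific regions in protein-coding genes. It was 0.619 kb from the nearest E10.5 region, in a stretch where several regions stand close together. The next E9.5-specific regions by score were in intron 2 (293.2, 53.5 percentile) and intron 10 (252.6, 49.0 percentile). Past intron 7, strong E10.5-specific regions were found in intron 16 (470.0) and intron 29 (535.3), and upstream of the gene at chr7:103250204-103251930 (473.8).

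Several small genes are annotated inside the members. Mir708, a microRNA in intron 1 of Odz4, had no region nearer to its annotated 5′ end than 35.1 kb at E9.5 and 31.2 kb at E10.5. The antisense transcript Gm15413 began within an E10.5-specific region, and Gm15416 began within an E9.5-specific region. In Odz2, the annotated starts of Gm12126, Gm12127 and U6 were at least 14.0 kb from any region of either list, and that of the pseudogene Gm8329 of Odz4 was 17.9 kb or more away. The start of Gm15412 was 4.79 kb from an E9.5-specific region and that of the 5S_rRNA copy in intron 24 was 1.68 kb from another, while Gm15415, which overlaps the 3′ end, started 3.88 kb from a shared region.

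Stage-specific regions differed between the genes in how far they lay from the other list. The median distance of an E10.5-specific region to the nearest E9.5 region was 133 kb at Odz2, 7.12 kb at Odz3 and 8.82 kb at Odz4. Of the 55 E10.5-specific regions of the 3 genes, 3 were within 1 kb of an E9.5 region and 28 were over 20 kb away. Of the 24 E9.5-specific regions, 2 were within 1 kb and 10 over 20 kb away. The same distances over all stage-specific regions of the lists are not given here. Odz2 also had the lowest E9.5 density, with 0.732 regions per 100 kb of gene against 2.24 at Odz3 and 3.65 at Odz4. Its 19 E10.5-specific regions include 7 upstream of the gene.

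The median GC content of E10.5-specific regions, over 301 bases around the centre, was 48.2% at Odz2, 44.4% at Odz3 and 48.8% at Odz4, beside 44.5% over E10.5-specific distal regions in protein-coding genes. The shared regions of the genes had medians of 49.2%, 47.2% and 51.2% at E10.5. For E9.5-specific regions the medians were 49.2%, 49.0% and 49.2%, against 51.5% in the background. The gene bodies as a whole had 40.9%, 42.2% and 45.5% GC, each less than the medians of that gene's own shared and specific regions.

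Shared regions could be compared between the stages only by their percentile. Of the 31 shared E9.5 regions, 24 stood at a higher percentile in the E10.5 list (77.4%), with a median difference of 13.4 points. By gene, the counts were 6 of 7 at Odz2, 6 of 7 at Odz3 and 12 of 17 at Odz4. Over all shared regions the share was 50.3% and the median 0.1 points. Over distal regions in protein-coding genes they were 56.9% and 3.9 points, beside 78.3% (18 of 23) and 14.7 points for the members' distal regions. The same pairs are not given for long genes. Of shared distal regions inside genes of 300 kb or more, 35.4% scored above their list's median at E9.5 and 49.9% at E10.5. For the members' shared distal regions, flanks included, these shares were 56.5% and 77.3%. A higher standing at E10.5 was therefore not particular to these genes. A percentile in one list depends on the other regions of that list, and regions joined or split between the lists weigh on these pairs, so the difference was not tested.

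The widest rise was that of the weak E9.5 region beside the Odz3 promoter, which the single E10.5 region absorbed. The next was at the last exon of Odz4, exon 33, where the score was 104.6 (9.0 percentile) at E9.5 and 926.1 (84.6 percentile) at E10.5. In intron 13 of Odz4, a region scored 165.0 (32.6 percentile) at E9.5 and 576.8 (74.9 percentile) at E10.5, and its neighbour 364.4 (59.2 percentile) and 734.9 (80.1 percentile). In intron 4, the values were 463.9 (64.6 percentile) and 1157 (88.7 percentile). The opposite direction was seen for a region in intron 7 of Odz2, which scored 295.3 (53.7 percentile) at E9.5 and 158.8 (32.6 percentile) at E10.5, and for the region 169 kb upstream of Odz3. The main promoter regions changed little, with differences of 4.9 points at Odz2, 1.1 at Odz3 and -3.2 at Odz4.

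**Figure D3:**
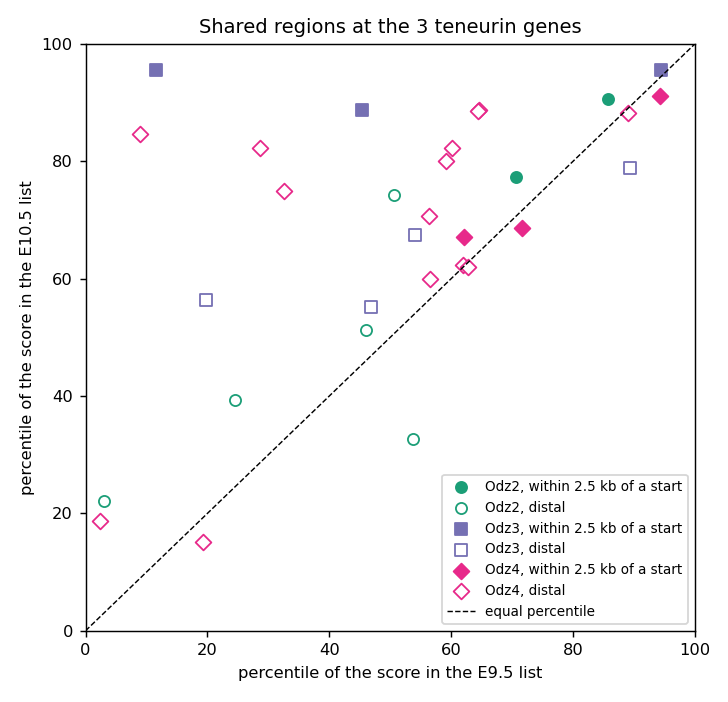
Percentile of the score in the E9.5 list (x axis) and of the best-scoring overlapping region in the E10.5 list (y axis) for the 31 shared E9.5 regions at Odz2 (circles), Odz3 (squares) and Odz4 (diamonds), filled where the region is within 2.5 kb of a start. Of these, 24 lie above the dashed line of equal percentiles, and the filled symbols at the upper right are the main promoters.

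The genes differed in how densely they were filled. Odz2 held 0.732 regions per 100 kb of gene at E9.5 and 1.46 at E10.5, Odz3 held 2.24 and 2.01, and Odz4 held 3.65 and 5.14. Among the 529 protein-coding genes of 300 kb or more, the medians were 0.917 and 1.49. At E10.5, 98.3% of these genes had a lower density than Odz4, 66.5% a lower one than Odz3 and 49.1% a lower one than Odz2. With 27 and 38 regions inside, Odz4 was among the 7 long genes with that many or more at E9.5 and among the 6 such genes at E10.5. Since the genes were chosen for many regions listed at 1 stage only, these ranks are not independent of that choice. More regions at E10.5 than at E9.5 were the rule, in 387 of the 529 genes. Odz2 (9 more) and Odz4 (11 more) were among these, and Odz3 (1 fewer) was among the 85 with more at E9.5.

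Measured in bases, regions of the E9.5 and E10.5 lists covered 9696 and 17967 bp of Odz2, 10505 and 10842 bp of Odz3, and 35977 and 47826 bp of Odz4. The part in both lists was 5.97 kb of the 21.7 kb covered at either stage in Odz2 (27.5%), 5.33 of 16.0 kb in Odz3 (33.3%) and 22.1 of 61.7 kb in Odz4 (35.8%). Odz3 thus had a near equal covered length at both stages, with 5.33 kb of it in common. The percentage in both lists is not given for other long genes, so whether it is low for such genes cannot be said.

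**Figure D4:**
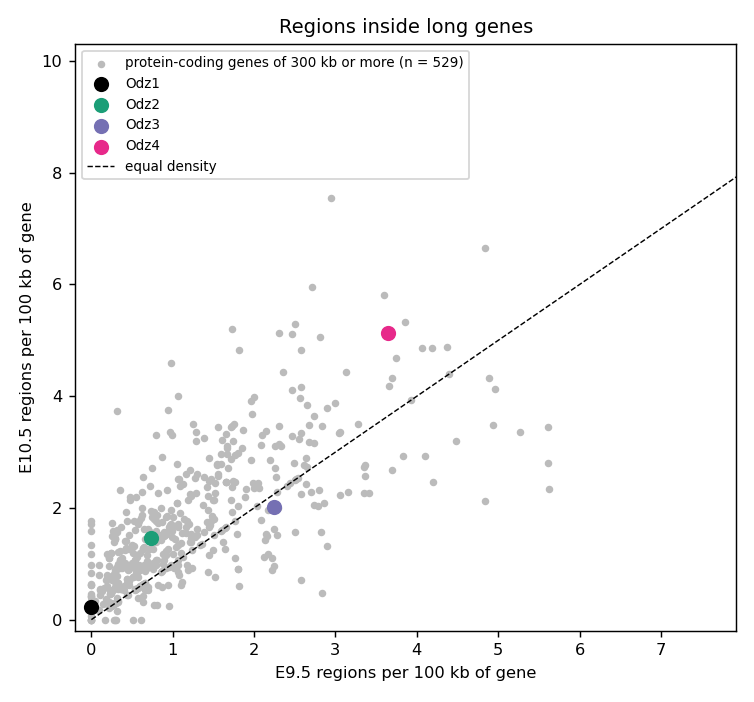
Regions per 100 kb of gene at E9.5 (x axis) and E10.5 (y axis) for 529 protein-coding genes of 300 kb or more (grey) and the 4 teneurin genes (coloured). Odz4 stands near the upper edge of the cloud at 3.65 and 5.14, and Odz2 near the medians of 0.917 and 1.49. Odz3 is close to the dashed line of equal density, and Odz1 near 0. Odz2, Odz3 and Odz4 were chosen for many regions listed at 1 stage only.

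The fourth family member, Odz1, was nearly bare. This 901 kb gene on the X chromosome had 1 region at E9.5, which was shared, and 3 at E10.5, of which 2 were specific. None of the 3 coding starts had a region nearer than 154 kb at either stage, and the regions near the 2 starts of its non-coding transcripts had best scores of 130.1 and 212.2.

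Genes whose products bind teneurins or act with them were counted in the same way. Together, the latrophilin genes Lphn1, Lphn2 and Lphn3 had 9 specific of 25 regions at E9.5 (36.0%, 20.2 to 55.5%) and 40 of 56 at E10.5 (71.4%, 58.5 to 81.6%). These 40 regions were at Lphn3, an 805 kb gene with 23 of 28 specific, and Lphn2, with 17 of 23. Lphn1, which is 41.9 kb long, had 3 specific among 8 at E9.5 and 0 among 5 at E10.5, a share whose Wilson interval reached 43.4%. The Flrt genes, which encode leucine-rich repeat proteins of the cell surface, had 8 of 20 (40.0%, 21.9 to 61.3%) and 15 of 26 (57.7%, 38.9 to 74.5%). Among them Flrt3 had 7 of 10 and Flrt2 had 7 of 14 specific regions at E10.5, and Flrt1 had 1 of 2. Over all regions 29.9% of the E9.5 list and 35.0% of the E10.5 list were specific. Over distal regions inside genes of 300 kb or more the shares were 44.0% and 62.1%. The intervals of the latrophilin and Flrt groups held these long-gene shares, although the partner counts include promoters and flanks.

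Genes with the most similar pair of shares were sought among 446 protein-coding genes with at least 10 regions in each list, by the Euclidean distance of their E9.5- and E10.5-specific percentages. For Odz2 these were Ptprd, a receptor tyrosine phosphatase gene of 2271 kb (40.0% and 71.4%, 2.34 points away), Arrdc3 (2.54 points) and Tmtc2 (3.5 points). For Odz3 they were A130050O07Rik (2.84 points), the cell polarity gene Pard3 (52.2% and 63.3%, 3.53 points) and the splicing regulator gene Rbfox1 (3.87 points). For Odz4 they were 2010111I01Rik (0.904 points), and the zinc-finger factor genes Bcl11a (37.5% and 59.1%, 1.87 points) and Bnc2 (2.4 points). Among these 9 genes, 6 were longer than 300 kb. How many of the 446 compared genes were that long is not given, so the count has no background. The distances are small beside the width of the members' Wilson intervals, and some gene is nearest to any pair of shares. The ranking is therefore a description only and was not tested.

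Both strands of the central 201 bases of every region were searched for 14 motifs. These were TAATTA for homeodomain proteins, TTTATGG and TTTACGA for posterior HOX proteins, TGATTTAT for PBX-HOX, TGACAG for MEIS, GTCTAGAC and GGCGCC for SMAD proteins, CTTTGAT for TCF/LEF, CAGATG and CATATG for E-box factors, TGANTCA for AP-1, GGAATG for TEAD, ATTGTT for SOX and AGATAA for GATA factors. They do not contain one another. In the windows printed above, the 3 matches were CTTTGAT in the E10.5-specific region of Odz3, TTTATGG, read on the minus strand, in that of Odz4, and CAGATG, also on the minus strand, in the E9.5-specific region of Odz4. These motifs were found in 3.42%, 3.39% and 16.6% of all windows of the same list.

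Among the member regions the most frequent was CAGATG, in 16 of 55 windows at E9.5 (29.1%, against 16.6% of all E9.5 windows and 21.9% of those in distal regions of protein-coding genes) and 18 of 85 at E10.5 (21.2%, against 18.4% and 23.7%). TTTATGG was in 1 of 55 at E9.5 (2.20% of all windows) and 9 of 85 at E10.5 (10.6%, against 3.39% of all and 4.63% of distal ones in protein-coding genes). Of these, 7 were in the 55 specific regions (12.7%, against 6.19% of E10.5-specific distal windows in protein-coding genes). TAATTA was in 2 of 55 (3.40% of all and 4.70% of distal ones in protein-coding genes) and 7 of 85 (6.07% and 8.35%). For the motifs that follow, the share in brackets is that of all windows only. TGACAG was in 8 (15.0%) and 10 (14.4%), GGAATG in 4 (11.3%) and 9 (11.4%), ATTGTT in 7 (6.83%) and 5 (7.74%), and AGATAA in 2 (6.92%) and 7 (6.16%). CTTTGAT was in 3 (2.76%) and 5 (3.42%), CATATG in 4 (2.30%) and 3 (3.65%), TGANTCA in 0 (4.68%) and 3 (4.96%), and GGCGCC in 0 (9.65%) and 3 (8.28%). TTTACGA and TGATTTAT were each in 1 window at E9.5 (0.399% and 1.43% of all) and in 0 at E10.5 (0.590% and 1.97%), and GTCTAGAC was in 0 at both (0.202% and 0.212%). In distal windows of protein-coding genes, TGACAG was in 18.9% at E9.5 and 17.3% at E10.5, and GGCGCC in 4.22% and 3.30%. GGAATG was in 14.4% and 14.0% of these, ATTGTT in 8.89% and 9.84%, and AGATAA in 9.18% and 7.86%. CTTTGAT was in 3.52% and 4.12%, CATATG in 3.22% and 5.23%, and TGANTCA in 5.55% and 6.04%. TTTACGA was in 0.421% and 0.595%, TGATTTAT in 2.02% and 2.70%, and GTCTAGAC in 0.269% and 0.270%. With counts of this size no difference from the lists was tested, and a match shows only that these letters are present.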

How the data were processed

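Reads were aligned by the authors to mm9 with Bowtie 1.1.0, keeping reads with a single position and up to 2 mismatches. Per the submitters' processing notes and the study's methods, regions were called with MACS 1.4 without a control and combined over the 2 replicates of a stage with MSPC (stringent p-value 1e-10, weak p-value 1e-06). No shift for the transposase cut is described. The deposited score is the authors' value, 10 times the negative log10 of the best p-value, and 843 E9.5 and 450 E10.5 regions were at 3100 or more, where scores stop being informative. Sequencing depth and values per replicate were not used here, so no difference between stages has a replicate error.

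Regions were annotated with GENCODE vM1 on NCBIM37, the assembly of mm9, with Python 3.11.15 and pandas 2.3.3. Regions centred 2.5 kb or less from a transcript start of a protein-coding gene are called promoter-proximal, and the others distal. GC content was read from 301 bases and motifs from 201 bases around each centre, and introns are those of the longest coding transcript. Sequences are from the genome and not from reads, and 1 promoter window is not reported here. Overlap, assignment and intervals were tested on simulated regions. No statistical test was made, because the members, lists and partner genes were chosen with earlier results of these data known. Named were, by rule, the members, Odz1, the partner genes, the 3 genes nearest in both shares, genes inside a member, promoter regions, and up to 3 shared and 3 specific regions of highest score per gene and list. Regions named beyond these were chosen after their values were seen.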

Additional observations from a re-analysis of the deposited data

How the results depend on the processing

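Of 116 values under alternative settings, 95 stayed within the interval of the share, within 1.5 times the count or within 1 SD of the GC content, and 21 moved. The E10.5-specific share exceeded the E9.5-specific share at all 3 genes under each of the 9 alternatives. Of these, 1 was chosen after seeing the data and also counted a region within 1 kb as a partner. The same order held over all regions (29.9% and 35.0%) and in long genes (44.0% and 62.1%), so it is not particular to these genes. Counted over distal regions inside the gene, which is not among the 9, Odz3 had 85.7% at both stages. Among the higher-scoring 50% of a list set against the whole other list, the E10.5-specific share was 42.9% at Odz2 (3 of 7 regions) and 25.0% at Odz3 (2 of 8), the E9.5-specific share 0% at Odz3 (0 of 3) and 14.3% at Odz4 (2 of 14), and those of the partner genes 17.6% and 53.8%. With the higher-scoring 50% of both lists, the E9.5-specific share was 0% at Odz3 and 14.3% at Odz4, and the numbers of regions were 5 and 7 at Odz2, 3 and 8 at Odz3, and 14 at Odz4 at E9.5. By construction, such filters leave fewer regions. For the comparison with the whole other list, the counts over all higher-scoring regions are given above. Counting only regions inside the gene left 9 at Odz3 at E10.5.

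In long genes, the shares at E9.5 and E10.5 were 53.3% and 75.3% with the higher-scoring 50% of both lists, 47.0% and 64.4% with a reciprocal overlap of 50%, and 46.0% and 64.3% in genes of 500 kb or more. In genes of 200 kb or more, the E10.5 share was 59.7%. No paired analysis was possible because the replicates of a stage are merged into 1 list, and leaving out replicates was not run for the same reason.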
